A study of Mus musculus with 6 samples.

Results

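AMPA receptors carry most fast excitatory transmission in the brain, and the 10 genes described here encode their pore-forming subunits and the auxiliary proteins that ride with them. The genes are the 4 subunit genes Gria1, Gria2, Gria3 and Gria4 and the 6 genes of transmembrane AMPA receptor regulatory proteins (TARPs), Cacng2, Cacng3, Cacng4, Cacng5, Cacng7 and Cacng8. They were chosen by symbol from a table of 24532 genes, where they held 20 of 36780 transcript rows. The rule uses no measured value, but earlier results of these data were known when it was set. Transcript rows were summed by gene identifier, and all 10 genes passed the filter on low counts.

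The samples were messenger RNA libraries from the nucleus accumbens core, the part of the ventral striatum that links cortical and limbic input to motivated action. All mice were wild-type adolescent males, postnatal days 35 to 55, and the strain was not given. Both groups, 3 control and 3 ethanol libraries, are described with contextual fear conditioning, extinction trials and 27 days of drinking every other day, with tissue taken 24 h later. The 27 days of drinking exceed the span of postnatal days 35 to 55. That age thus cannot hold for the whole procedure and need not be the age at tissue collection. The ethanol schedule came after conditioning and consisted of 6 intraperitoneal injections over 6 h of ethanol at 20% v/v in saline, first at 1.8 g/kg and then 5 times at 1.2 g/kg. The titles separate the groups, while the treatment label reads ethanol exposure for all 6 libraries and does not say what the control mice were injected with. The labels do not tie a library to an animal. Each p-value therefore measures only how far these libraries spread, and that spread may be technical.

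An AMPA receptor is a tetramer of GluA subunits. The Gria2 subunit, once its messenger has been edited by the enzyme encoded by Adarb1, makes the channel nearly impermeable to calcium, and receptors without it, often rich in the Gria1 subunit, let calcium through. TARPs carry receptors to the surface, anchor them at the postsynaptic scaffold and slow their closing, and in the accumbens a change in the mix of subunits is a known mark of drug experience.

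Every subunit gene except Gria3 had at least 1 transcript row for each of 2 splice forms called flip and flop, which could be told apart by exon. They use alternative exons in front of the last membrane segment, and the choice sets how fast the receptor desensitizes. The exon pair of Gria1 is shown because the estimated use of its 2 forms separated the libraries by group, as described further on. Both exons have 115 bases and lie on chromosome 11 of the mm10 build, plus strand, flop at chr11:57309769-57309883 and flip after an intron of 724 bases at chr11:57310608-57310722. They are exon 14 of their transcripts in GENCODE M21, from which the sequences were read, and capitals mark the 36 bases at which they differ.
Gria1 flop exon: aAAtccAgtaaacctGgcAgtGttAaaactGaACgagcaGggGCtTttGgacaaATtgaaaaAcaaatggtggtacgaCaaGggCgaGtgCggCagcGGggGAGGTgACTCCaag
Gria1 flip exon: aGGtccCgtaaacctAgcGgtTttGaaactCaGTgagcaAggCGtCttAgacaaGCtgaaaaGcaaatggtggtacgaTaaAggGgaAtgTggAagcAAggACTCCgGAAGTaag
The other 79 bases (68.7%) are identical. The pairs of Gria2 and Gria4, each also 115 bases long, differ at 36 and 31 bases. Rows that differ only in this exon can be told apart only by reads that touch it.

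The libraries held 35898026 to 67399599 estimated reads, with reads for 15924 to 17707 genes. Markers of the tissue were present in every library: none of 10 markers of medium spiny neurons was at 0, and their summed level was 1719 to 2083 CPM (a gene's reads relative to the library total, scaled by edgeR's TMM factors) in control and 1766 to 3659 CPM in ethanol. Ethanol 2 had the highest of these sums. It also differed from the other libraries by length of transcript. The 2805 tested genes with a transcript of 5000 bases or more stood at a median of -0.39 (log2, against the mean of the 6 libraries) in ethanol 2, at 0.14 in ethanol 1 and 0.18 in ethanol 3, and between -0.06 and 0.0013 in the controls. The 4 Gria genes belong to that length class. The 2776 tested genes whose longest transcript is under 1500 bases stood at -0.25, 0.29 and -0.23 in ethanol 1, 2 and 3. In control 1, 2 and 3 they stood at -0.05, -0.02 and 0.11. Cacng4, Cacng7 and Cacng8 belong to that shorter class. The part of transcript length in the values of the 10 genes, and in shares or ratios among them, was not tested. Control 3 stood apart by choroid plexus markers, which summed to 413 CPM there and to 12.4 to 20.1 CPM in the other 5 libraries. Most of that sum was 1 gene, Ttr, at 394 CPM. Kcnj13, Folr1, Kl and Aqp1 were also highest in control 3, at 1.78, 1.07, 6.12 and 0.98 CPM, while Clic6 was not.

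Set against each other per length, Gria1 and the TARP gene Cacng7 were the 2 most abundant of the 10 genes in every library. In FPKM, fragment counts divided by transcript length and library size, the scale on which genes can be compared, Gria1 stood at 47.6 ± 4.23 in control and 56.7 ± 9.79 in ethanol (SD, n = 3 each), and Cacng7 at 51.9 ± 12.8 and 57.8 ± 22.3. Their ranges overlapped, so that neither can be placed above the other. Cacng3 came next in 5 of 6 libraries, at 23.9 to 31.4 FPKM over the 6, and Cacng5 was last in all 6, at 3.94 to 7.14 FPKM. Between them, Gria2 (12.2 to 28.3 FPKM), Cacng8 (14.6 to 23.1), Gria4 (9.01 to 16.6), Cacng2 (11.7 to 15.5), Gria3 (7.35 to 14.3) and Cacng4 (9.62 to 24.6) had overlapping ranges. Within a library Gria2 stood above Gria4 and Gria4 above Gria3 in all 6, and Cacng8 above Gria3 in all 6, while Cacng4 ranked 8 or 9 of the 10 genes in control and 4 to 6 in ethanol. The table's model of Cacng4 is 984 bases and that of Cacng7 828 bases, against 3500 and 2212 bases for the longest GENCODE transcripts. The longest models of Gria2 (6841 against 10371), Cacng2 (2887 against 5510), Cacng3 (1526 against 2777) and Cacng8 (1455 against 1897) were also shorter. Those of Gria1, Gria3, Gria4 and Cacng5 were not. Reads outside a model may be missing from its gene's count.

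The comparison of ethanol with control asks which of these genes differed between the groups after the drinking period. By edgeR's quasi-likelihood test over 15774 genes, with Benjamini-Hochberg adjustment, 0 of the 10 genes were called, and percent called over all genes was 0. At an unadjusted p under 0.05 there was 1 of 10, where all genes gave 10.7% (5.31% higher and 5.34% lower in ethanol), and limma-voom called 0 of the 10 as well. DESeq2 called 1, Cacng4, and 1.01% of all genes it adjusted. Of the 10 genes 7 had a fold change above 1 and 3 below, against 52.7% above over all genes, and the median log2 fold change was 0.19 against 0.02 over all genes. All 6 TARPs had estimates above 0 (median 0.27), and the subunit genes had 1 above and 3 below (median -0.25). The difference between these lists was not tested, and the estimates of Cacng2 and Cacng7 turned below 0 in some alternatives. None of these estimates but that of Cacng4 was past the threshold in any fit that was run.

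**Figure D1:**
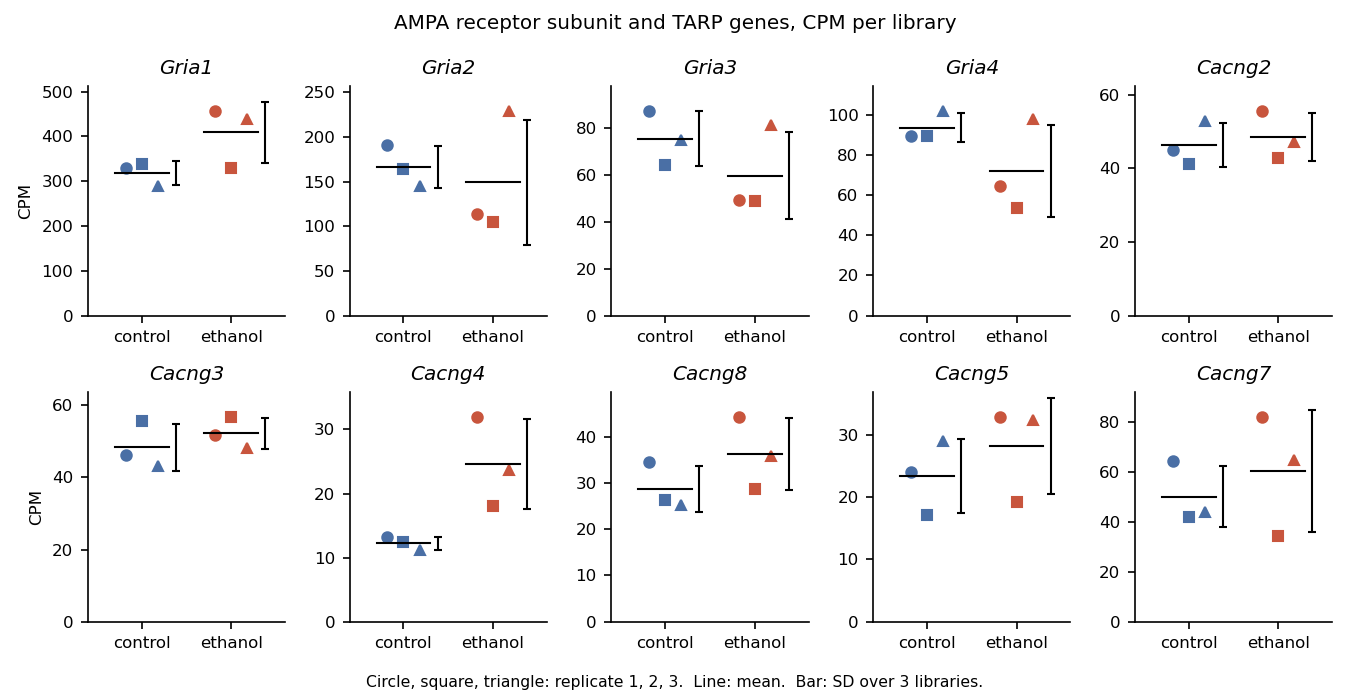
CPM (y axis, from 0) of each of the 10 genes in the 3 control (blue) and 3 ethanol (red) libraries. Circle, square and triangle are replicates 1, 2 and 3, the line is the mean and the bar the SD over 3 libraries. Cacng4 is the 1 gene of the 10 in which all ethanol libraries, 18.1 to 32.0 CPM, lie above all control libraries, 11.2 to 13.2 CPM. The same held for 9.34% of all tested genes.

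Gria1, the subunit of calcium-permeable and activity-inserted receptors, had 329, 338 and 289 CPM in control 1, 2 and 3 and 458, 330.4 and 439 CPM in ethanol 1, 2 and 3. Ethanol 1 and ethanol 3 lay above every control and ethanol 2 lay among them, so the groups overlapped. The log2 fold change was 0.36 (SE 0.17), with an adjusted p of 0.49 by edgeR.

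Gria2, whose edited form blocks calcium entry, had 191, 164 and 145 CPM across the controls, against 113, 104 and 229 CPM after ethanol. Ethanol 1 and ethanol 2 were the lowest of the 6 libraries and ethanol 3 was the highest. The log2 fold change of -0.16 (SE 0.29, edgeR adjusted p = 0.86) therefore averages over values on both sides, and it was -0.61 without ethanol 3, 0.0037 without ethanol 1 and 0.03 without ethanol 2.

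Gria3, which usually pairs with the Gria2 subunit, had 87.2, 64.1 and 74.6 CPM in the controls against 49.1, 48.6 and 80.9 CPM in ethanol. Gria4, the subunit of fast receptors that is prominent in interneurons, had 89.2, 89.3 and 102 CPM in the controls against 64.3, 53.7 and 97.6 CPM in ethanol. In both, as in Gria2, ethanol 1 and ethanol 2 were the lowest libraries and ethanol 3 was within or above the controls. The log2 fold changes were -0.34 (SE 0.23, edgeR adjusted p = 0.6) and -0.38 (SE 0.22, edgeR adjusted p = 0.55). With 1 library left out, Gria3 ran from -0.62 (without ethanol 3) to -0.22 (without ethanol 1 or ethanol 2) and Gria4 from -0.66 (without ethanol 3) to -0.22 (without ethanol 2). The 3 genes together summed to 317 to 368 CPM in the controls, 227 and 207 in ethanol 1 and 2, and 408 in ethanol 3.

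Cacng4, a TARP known from striatal neurons and from glial cells, had the largest difference among the 10. It stood at 13.2, 12.4 and 11.2 CPM in control 1, 2 and 3 and at 32.0, 18.1 and 23.7 CPM in ethanol 1, 2 and 3. The groups did not overlap, which held for 9.34% of all tested genes with ethanol above. The fold change was 2.01, a log2 fold change of 1.004 (SE 0.22), with an unadjusted p of 0.0013 and an adjusted p of 0.42 by edgeR. DESeq2 gave the same size with an adjusted p of 0.021. Without ethanol 2 edgeR gave 1.17 with an adjusted p of 0.022, in a fit that called 1.26% of all genes higher, and over the 13 alternatives the adjusted p ran from 0.021 to 0.93 while the log2 fold change stayed between 0.77 and 1.17. Ethanol 1 was the highest library, and without it the log2 fold change was 0.77.

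The other type I TARPs differed less between the groups. Cacng2, which encodes stargazin, the first TARP to be described, had 45.0, 41.1 and 52.8 CPM in the controls against 55.6, 42.7 and 47.1 CPM in ethanol, with a log2 fold change of 0.07 (SE 0.17) that was -0.02 when libraries were scaled by total counts only, -0.01 without control 2 and -0.04 without ethanol 1. Cacng3, a close relative of stargazin found mainly in forebrain, had 46.3, 55.5 and 43.1 CPM and 51.7, 56.8 and 48.2 CPM, with the log2 fold change at 0.11 (SE 0.17). In these genes the spread within a group exceeded the difference between the means. Cacng8, the TARP that dominates in hippocampus, had 34.5, 26.4 and 25.2 CPM in the controls against 44.3, 28.8 and 35.9 CPM after ethanol, with the log2 fold change at 0.34 (SE 0.21). Ethanol 1 and ethanol 3 stood above the controls, and ethanol 2 did not. The edgeR adjusted p of the 3 genes was 0.91, 0.83 and 0.56. With 1 library left out, Cacng3 ran from 0.03 to 0.23 and Cacng8 from 0.17 to 0.50.

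The type II TARPs Cacng5 and Cacng7, which modulate gating more than surface delivery, also overlapped between the groups. Cacng5 had 24.1, 17.2 and 29.0 CPM in the controls against 32.9, 19.3 and 32.4 CPM after ethanol, with the log2 fold change at 0.27 (SE 0.26, edgeR adjusted p = 0.71), which was 0.09 without control 2 and 0.47 without ethanol 2. Cacng7 had 64.5, 42.2 and 44.0 CPM and 82.2, 34.3 and 64.9 CPM, with the log2 fold change at 0.27 (SE 0.3, edgeR adjusted p = 0.76). For Cacng7, ethanol 2 was the lowest and ethanol 1 the highest of the 6 libraries, and the estimate was -0.02 without ethanol 1. Ethanol 2 was the lowest of the ethanol libraries for 9 of the 10 genes, the exception being Cacng3, in which it was the highest.

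Shares within a library do not depend on how libraries are scaled. Of the summed FPKM of the 4 subunit genes, Gria1 took 47.8%, 52.06% and 47.7% in the control libraries and 66.8%, 61.5% and 52.11% in the ethanol libraries. The means were 49.2% ± 2.48 and 60.1% ± 7.42 (SD, n = 3 each), and the groups were separated by the narrow gap between control 2 and ethanol 3. Gria4 took 14.5%, 15.8% and 18.4% in control and 10.5%, 12.2% and 13.6% in ethanol, with no overlap. Gria2 took 23.8%, 21.5% and 20.2% in control and 14.3%, 16.4% and 23.1% in ethanol, where ethanol 3 reached the control range, and Gria3 stood at 12.7% ± 1.79 and 9.84% ± 1.40 with overlapping groups. Because shares add to 100%, a larger Gria1 share and smaller shares of the others are 1 observation and not several.

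Among the TARPs, Cacng4 took 8.03%, 9.17% and 8.36% of the summed FPKM in the control libraries and 14.5%, 13.4% and 13.1% in the ethanol libraries. The difference of 5.17 percentage points was several times the SD within either group (0.59 and 0.71). Cacng7 took the largest share in every library, 40.9% ± 4.95 in control and 39.1% ± 7.68 in ethanol, and Cacng8 a steady 12.7% to 14.5%. The ratio of summed TARP to summed subunit FPKM was 1.39, 1.21 and 1.28 in control and 1.87, 1.46 and 1.25 in ethanol, with overlap. Over the 11 values tested, the exact two-sided permutation test gave p = 0.1 for the shares of Gria1, Gria4 and Cacng4, the smallest that 3 against 3 libraries can give, and the adjusted value was 0.37.

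**Figure D2:**
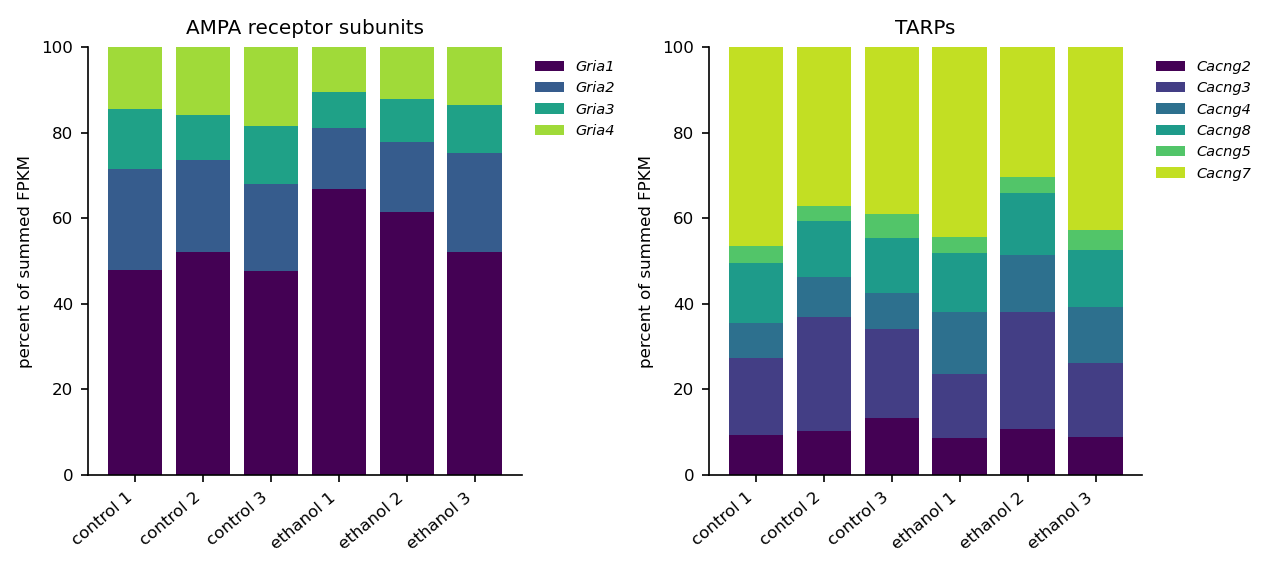
Share (y axis, percent of the summed FPKM) of each subunit gene, left, and each TARP gene, right, in the 6 libraries along the x axis. The Gria1 share is 47.7% to 52.06% in control and 52.11% to 66.8% in ethanol, and the Cacng4 share is 8.03% to 9.17% in control and 13.1% to 14.5% in ethanol.

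The transcript rows showed a second difference inside Gria1. The flip form, summed over its 2 rows, stood at 13.8, 17.5 and 12.7 FPKM in control 1, 2 and 3 and at 35.9, 20.9 and 30.4 FPKM in ethanol 1, 2 and 3. The flop form stood at 35.3, 33.4 and 30.1 FPKM in control and 24.8, 24.6 and 33.4 FPKM in ethanol. All ethanol libraries were above all control libraries for flip, while for flop the groups overlapped. The second flip row, which starts at another first exon, had 3, 0 and 630 reads in control and 1321, 0 and 313 in ethanol, and without it the difference in flip share given next was 20.8 points. The flip share of flip plus flop was 28.2%, 34.3% and 29.7% in control and 59.2%, 46.0% and 47.7% in ethanol, a difference of 20.2 percentage points between means of 30.7% ± 3.22 and 51.0% ± 7.18 (SD, n = 3 each). The higher Gria1 total in ethanol 1 thus lay in the flip form, the exon printed above with its differing bases in capitals.

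The exact permutation p of this share was 0.1, the smallest possible here, and the difference was seen before it was tested. Over all 10803 transcripts of genes with several tested rows, the share within the gene did not overlap in 7.04% with ethanol above and 6.09% with ethanol below. The main Gria1 flip row had a log2 fold change of 1.14 (SE 0.27), an unadjusted p of 0.0066 and an adjusted p of 0.73 by edgeR over 22527 transcripts, of which 0 were called and percent called was 0. A test of transcript usage within genes (diffSpliceDGE of edgeR) called 0.221% of 10874 transcripts and none of Gria1, whose flip row had an unadjusted p of 0.29 and an adjusted p of 1.0 by edgeR. Of the 20 member rows 19 were tested, 0 were called and 3 had an unadjusted p under 0.05, against 6.55% of all rows (3.85% higher in ethanol). These 3 were the main Gria1 flip row, the only row of Cacng4, which repeats its gene result, and a row of Gria3. That Gria3 row had 15, 2 and 19 reads in control and 236, 7 and 201 in ethanol (edgeR unadjusted p = 0.0498).

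The counts behind the split are few. The exon makes up 2.00% of the 5738-base transcript, so that by length alone 212 to 576 reads of a library would fall in it. With those numbers the 95% Wilson intervals of the Gria1 flip share ran from 24.0% to 36.2% in control 3, from 29.0% to 40.4% in control 2, from 40.1% to 51.9% in ethanol 2 and from 55.1% to 63.1% in ethanol 1. These intervals cover counting error at those numbers only. How many reads touch the exon also depends on read length and is not known. The counting tool is not known, and the intervals leave out how it assigned reads to forms.

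For Gria2 the flip share was 47.4%, 50.05% and 44.1% in control and 49.95%, 49.1% and 57.2% in ethanol (exact permutation p = 0.3). For Gria4 it was 52.9%, 51.1% and 26.5% in control and 48.4%, 56.4% and 47.4% in ethanol (exact permutation p = 0.7), where control 3 stood apart and the difference of 7.23 points became -1.28 without it. Neither gene had groups that were apart. The rows of Gria3 could not be split in this way, since 2 of them matched 1 GENCODE transcript. Its row estimates were also unstable: the row with both exons had 0 reads in control 3 and 2398 in control 2, and a coding row had 6 reads in control 2 and 1257 to 2711 in the other 5. The Gria3 total, at 64.1 to 87.2 CPM in control, did not share that spread.

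**Figure D3:**
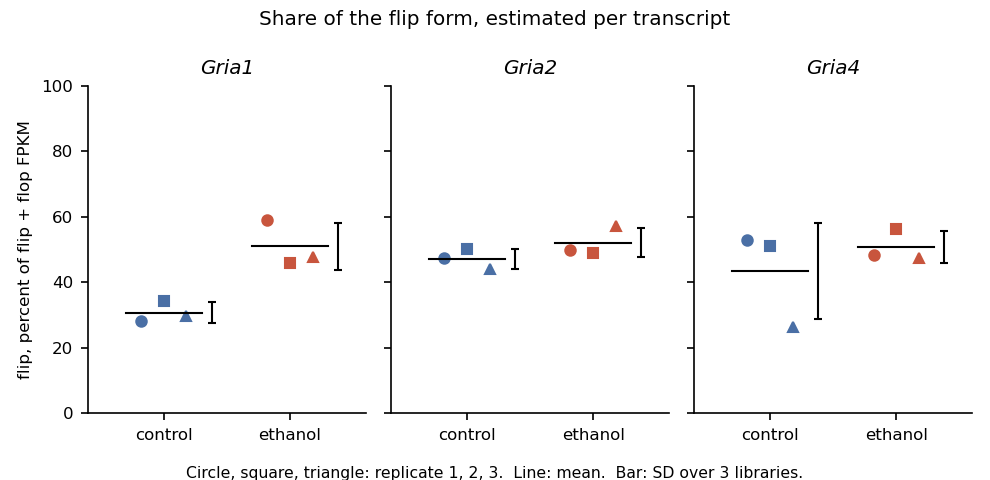
Flip form as a percent of flip plus flop FPKM (y axis, 0 to 100) for Gria1, Gria2 and Gria4 in control (blue) and ethanol (red) libraries. Symbols are replicates 1, 2 and 3, lines are means and bars SD over 3 libraries. Gria1 lies at 28.2% to 34.3% in control and 46.0% to 59.2% in ethanol, while the groups overlap for Gria2 and Gria4.

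Of 27 other genes of the receptor complex, listed by role, 0 were called by edgeR over all genes and 0 by limma-voom or DESeq2, which called 1.01% of all genes it adjusted. At an unadjusted p under 0.05 there was 1 of 27, below the 10.7% of all genes, and 19 of the 27 had estimates above 0 (median 0.1), against 52.7% of all genes (median 0.02). Among the 8 other auxiliary subunits, Cnih3, a cornichon that slows receptor closing, had 35.1, 30.5 and 36.8 CPM in the controls against 24.1, 23.3 and 27.6 CPM in ethanol. All ethanol libraries lay below all controls, as in 8.41% of all tested genes, and the log2 fold change was -0.45 (SE 0.16, unadjusted p = 0.02, edgeR adjusted p = 0.44). Over its 13 alternatives it lay between -0.53 and -0.40 with 0 past the threshold. Its relative Cnih2 was at 0.24 (SE 0.2), with ethanol 2 at 307 CPM and the other 5 libraries at 185 to 208 CPM. The synapse differentiation protein gene Syndig1 was at 0.36 (SE 0.18), Gsg1l, a subunit that dampens the channel, at 0.07, and Shisa7 at -0.16.

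Of the 4 assembly factors and lipid enzymes, Frrs1l, needed for the first steps of receptor building, had 19.2, 24.1 and 14.7 CPM in the controls against 44.5, 13.0 and 51.3 CPM in ethanol. Ethanol 1 and ethanol 3 lay above every control and ethanol 2 was the lowest of the 6 libraries. Its log2 fold change of 0.91 (SE 0.42, edgeR adjusted p = 0.48) was 1.3 without ethanol 2, with an adjusted p of 0.024 in a fit that called 1.26% of all genes higher, and 0.58 without ethanol 3, with an adjusted p of 0.59.

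The scaffold and trafficking genes had 5 of 9 estimates above 0 and a median of 0.02. Dlg4, which encodes the scaffold PSD-95 that holds TARPs at the synapse, was at 647 ± 20.5 CPM in the controls against 685 ± 89.9 CPM after ethanol, with the log2 fold change at 0.08 (SE 0.15). Nsf, an ATPase that binds the Gria2 subunit, was at 0.29 (SE 0.18), and Epb41l1, which links the Gria1 subunit to actin, at 0.38 (SE 0.24). Of the 3 pentraxin genes, whose proteins cluster receptors from outside the cell, Nptx2 had 23.9, 22.0 and 25.9 CPM in the controls against 34.2, 26.7 and 29.4 CPM in ethanol. The groups did not overlap, as in 9.34% of all tested genes with ethanol above, and the log2 fold change was 0.33 (SE 0.17, edgeR adjusted p = 0.5). Adarb1, the editing enzyme of Gria2, stood at 280.3 ± 63.5 and 280.7 ± 79.6 CPM, with the log2 fold change at 0.0022 (SE 0.24). Among the named partner genes, leaving out 1 library changed the sign for Shisa7 (-0.30 to 0.02), Gsg1l (-0.05 to 0.20), Dlg4 (-0.03 to 0.14) and Adarb1 (-0.18 to 0.20). Several partner genes not named here also changed sign.

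**Figure D4:**
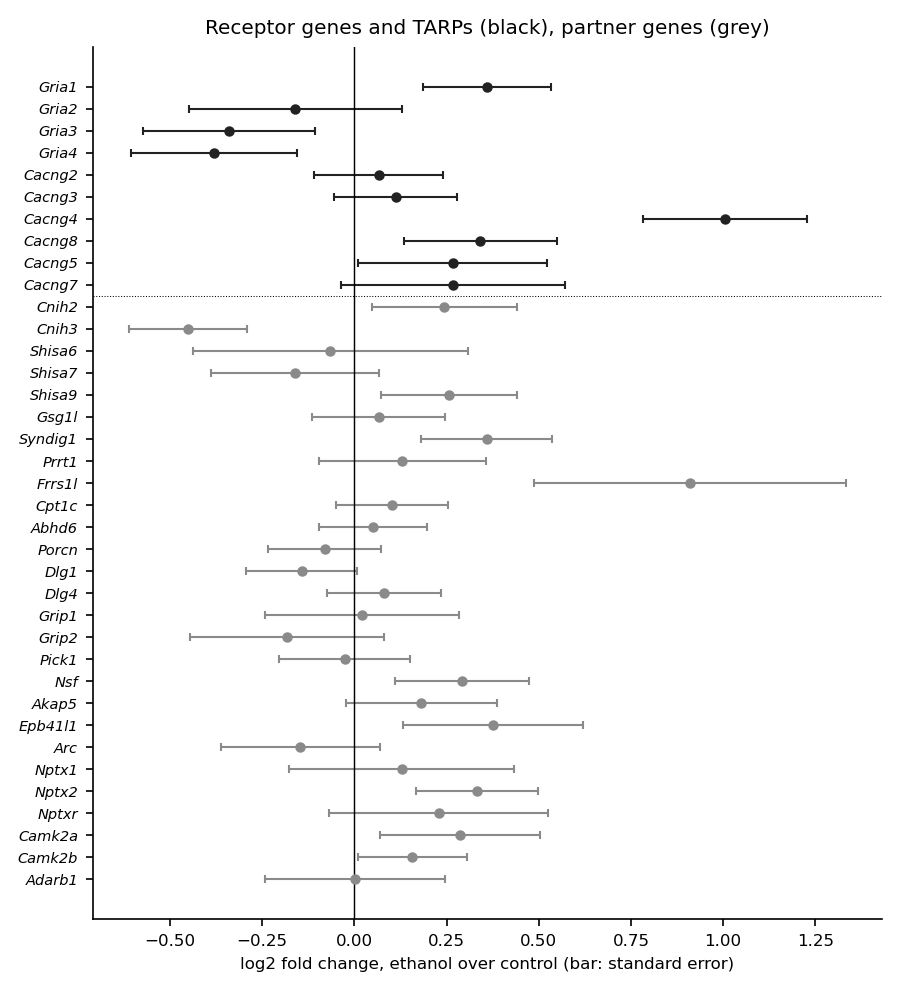
Log2 fold change of ethanol over control (x axis) with its standard error for the 10 receptor and TARP genes (black) and the 27 partner genes (grey), by edgeR. Cacng4 at 1.004 and Frrs1l at 0.91 lie farthest to the right, and Cnih3 at -0.45 lies farthest to the left.

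None of the marker genes was called by edgeR. DESeq2 called 4 over all the marker lists, and 1.01% of all genes it adjusted. Drd2 and Slc1a3 were higher and the meningeal Slc13a4 and choroid plexus Kcnj13 lower in ethanol. Kcnj13 was near the floor, with 0.26, 0.47 and 1.78 CPM in the controls against 0.06, 0 and 0 CPM in ethanol. In bulk tissue fewer cells of a type and less RNA per cell cannot be told apart. Of 8 markers of cortical glutamatergic neurons 7 were tested and 6 of them stood lower in ethanol. Their sum was 156 to 424 CPM in the controls against 67.5 to 154 CPM in ethanol, with Slc17a7, the vesicular glutamate transporter of cortical neurons, at 288, 58.2 and 102 CPM against 24.7, 9.42 and 55.9 CPM. Emx1 was at 0 in control 2 and did not pass the filter. By library, these sums were 424, 156 and 218 CPM in control 1, 2 and 3 and 94.5, 67.5 and 154 CPM in ethanol 1, 2 and 3. Gria2, Gria3 and Gria4 together summed to 368, 317 and 321 CPM in the same controls and 227, 207 and 408 CPM in ethanol. This sum was lowest in ethanol 2, next lowest in ethanol 1 and highest in ethanol 3. Within ethanol the marker sum ran in the same order. In ethanol 3 the marker sum was 154.1 CPM, against 156.0 CPM in the lowest control. Of 8 astrocyte markers 7 had estimates above 0, with sums of 1996 to 2398 CPM in the controls against 2352 to 3008 CPM in ethanol, and Slc1a3 was at 0.73. Of 6 markers of oligodendrocyte precursors 4 had estimates above 0, with sums of 583 to 610 CPM in the controls against 580 to 779 CPM in ethanol. Pdgfra, the defining receptor of precursors, had 43.2, 36.6 and 39.6 CPM in the controls against 71.4, 41.9 and 66.2 CPM in ethanol, while Olig2 and C1ql1 had estimates below 0 and the list's sum was 779, 699 and 580 CPM in ethanol 1, 2 and 3. Of the 10 markers of medium spiny neurons 9 had estimates above 0, with Drd2 at 0.86 and Ppp1r1b at 0.50. Ppp1r1b had overlapping groups, with 1156 CPM in ethanol 2 and 486 CPM in ethanol 3, and stood at 0.07 without ethanol 2. Among all marker genes, Kcnj13 was at 0 in ethanol 2 and ethanol 3, and Emx1, Folr1 and Aqp1 were at 0 in control 2. The part of cell makeup in the values of Cacng4, of Gria2 to Gria4 and of the Gria1 forms was not tested.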

How the data were processed

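Messenger RNA of 6 libraries was analysed from 1 deposited table with a row per RefSeq transcript. The authors deposited estimated counts and FPKM values per transcript, per the file headers, and the submitters' processing notes name mm10 and bcl2fastq without versions. For the aligner and the counting tool, no name is stated in the labels or headers. Counts in the table are estimates: in each library 100% of those checked equalled FPKM times length times a library constant rounded up, within 0.05 reads. Whether counting used strand was not stated.

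Counts were summed by gene identifier (10 identifiers carried 2 symbols), filtered with filterByExpr (minimum count 10), scaled by TMM and tested with edgeR 4.0.16 (glmQLFit, glmQLFTest, R 4.3.3), two-sided, with Benjamini-Hochberg adjustment over all genes and a threshold of 0.05. The standard error is the log2 fold change over the square root of F. The edgeR steps were tested on simulated data. DESeq2 1.42.0 and limma 3.58.1 (voom), other scalings, no filter, a replicate block and leaving out each library were alternatives. The usage test and the flip shares were added after seeing the data. Flip and flop rows were assigned through GENCODE M21 transcripts matched to RefSeq. At these depths 3 reads are 0.045 to 0.084 CPM.

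The 10 genes and all gene lists were chosen with earlier results of these data known. Named genes were the 10 members, the 6 partner genes with the smallest unadjusted p (none passed), Cnih2, Shisa7, Gsg1l, Dlg4, Nptx2 and Adarb1, and the markers Slc17a7, Drd2, Ppp1r1b, Slc1a3 and Pdgfra, with Cacng1 and Cacng6 as gamma subunits outside the TARPs. Lists of interneuron, myelin, microglial, meningeal and choroid plexus markers had medians of 0.10, -0.07, 0.27, -0.45 and -0.34.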

Additional observations from a re-analysis of the deposited data

How the results depend on the processing

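The count of 0 receptor and TARP genes called became 1 (Cacng4) with DESeq2, and it ranged from 0 to 1 when 1 library was left out, with 1 (Cacng4) without ethanol 2. The count of 0 partner genes called likewise ranged from 0 to 1, with 1 (Frrs1l) without ethanol 2. The count of transcripts called stayed 0 in each alternative run, the usage test included. When each library was left out in turn, log2 fold changes ranged from -0.6097 to 0.03094 for Gria2, from -0.04426 to 0.1657 for Cacng2 and from -0.01814 to 0.5379 for Cacng7, and Cacng2 was at -0.01839 with total counts only. The share differences ranged from -5.68 to 0.40 points for Cacng3, from -0.63 to 0.53 for Cacng5 and from -4.46 to 2.56 for Cacng7, and the flip share difference of Gria4 from -1.28 to 11.9. The difference in Gria1 share ranged from 7.59 to 14.9 points, that in Cacng4 share from 4.77 to 5.50 and that in Gria1 flip share from 16.1 to 22.7. The cause of these changes was not tested. The other 7 genes kept their direction in all 13 alternatives.

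With the replicate number as a block, 0 receptor and TARP genes, 0 partner genes and 0 transcripts were called, and Cacng4 was at 0.97 (edgeR adjusted p = 0.25). The samples share only a number: same-numbered deviations correlated at 0.22, -0.053 and -0.11, and control 2 and control 3 each correlated best with the other's ethanol number.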

Other observations

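The TARP genes lie in clusters with gamma subunit genes that are not TARPs. On chromosome 11 (mm10), Cacng1 (107703218 to 107716476), Cacng4 (107734780 to 107794464) and Cacng5 (107874605 to 107915055) follow each other, with 18303 bases between Cacng1 and Cacng4 and 80140 bases between Cacng4 and Cacng5. Cacng1, the gamma subunit of the skeletal muscle calcium channel, was at 0.16 to 0.73 CPM over the 6 libraries, where 3 reads stand for 0.045 to 0.084 CPM, and did not share the level of its neighbours. Its log2 fold change was 0.74 (SE 0.68, edgeR adjusted p = 0.7). On chromosome 7, Cacng7 (3336585 to 3366948), Cacng8 (3394042 to 3415605) and Cacng6 (3424662 to 3435667) lie in a row, with 27093 and 9056 bases between them. Cacng6 had 0 to 43 reads in a library and was left out by the filter, while Cacng7 and Cacng8 had 921 to 5163 reads.

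The other members stand alone. Gria1 spans chromosome 11 from 57011618 to 57330244, Gria2 chromosome 3 from 80684936 to 80802791, Gria3 chromosome X from 41401301 to 41678601 and Gria4 chromosome 9 from 4417893 to 4796234. Cacng2 spans chromosome 15 from 77993623 to 78119280 and Cacng3 chromosome 7 from 122671744 to 122769394. Gria2 and Gria4 each also have a short row whose span does not reach the flip and flop exons. That of Gria2 had 59 to 271 reads in control and 36 to 262 in ethanol, and that of Gria4 120 to 244 and 205 to 311. Both overlapped between the groups, and the row of Gria2 made up a small part of its gene. Per length, the row of Gria4 stood at 2.15 of the gene's 9.01 FPKM in ethanol 2 and at 2.96 of 16.6 FPKM in ethanol 3. These short rows are not in the flip shares.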
